A study of Mus musculus with 12 samples.

Results

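The data described here are the open chromatin regions around 5 microRNA genes with well-known roles in myeloid blood cells: Mir223, Mir142, Mir155, Mir146 and Mir21a. A region belonged to this set when it lay within 20 kb of a member gene on the mouse genome GRCm38, with gene positions from the GENCODE M21 basic annotation. By this rule 40 of 121336 regions were members, 8 at Mir223, 12 at Mir142, 4 at Mir155, 3 at Mir146 and 13 at Mir21a. Accessibility was measured by ATAC-seq, in which a transposase cuts DNA that is not wrapped in closed chromatin, so the count of a region rises with its openness. The cells were LSK (Lin- Sca-1+ c-Kit+ stem and early progenitor cells) and GMP (granulocyte-monocyte progenitors, sorted as Lin- Sca-1- c-Kit+ Cd16/32+ cells) from bone marrow of littermates on the C57BL/6 background, aged 8 to 12 weeks. The mice were wild type (WT) or carried a germline deletion of the upstream regulatory element (URE) of Spi1, the gene of the transcription factor PU.1, and the deletion is therefore present in every cell of a URE animal. WT and URE cells of each type made up 4 groups (written WT-LSK and so on) of 3 libraries, 1 per mouse and cell type.

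MicroRNAs are short RNAs cut from hairpin precursors that lower the output of messenger RNAs carrying a match to their seed, the bases near the 5′ end. miR-223 is a hallmark of the granulocyte lineage, and PU.1 and C/EBP factors are known regulators of its gene. miR-142 is produced in nearly all blood cells, miR-155 and miR-146a are induced by inflammatory signals and act in opposite directions on them, and miR-21 is raised in many tumours.

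The mature products are shown because they are what these loci make. RefSeq (GRCm38.p6) held 10 mature sequences for the 5 genes, with 10 different seeds, so that no seed was shared. Capitals mark the seed, bases 2 to 8 from the 5′ end. Mir223 lies at chrX:96242817-96242926 on the plus strand.
mmu-miR-223-3p: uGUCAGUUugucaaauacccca
mmu-miR-223-5p: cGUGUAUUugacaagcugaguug
Mir142 lies at chr11:87756864-87756927 on the plus strand.
mmu-miR-142a-5p: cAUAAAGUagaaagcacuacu
mmu-miR-142a-3p: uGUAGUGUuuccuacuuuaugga
Mir155 lies at chr16:84714140-84714204 on the plus strand.
mmu-miR-155-5p: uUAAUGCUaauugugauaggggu
mmu-miR-155-3p: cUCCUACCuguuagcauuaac
Mir146, the gene of miR-146a, lies at chr11:43374397-43374461 on the minus strand.
mmu-miR-146a-5p: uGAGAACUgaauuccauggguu
mmu-miR-146a-3p: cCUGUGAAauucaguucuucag
Mir21a lies at chr11:86584067-86584158 on the minus strand.
mmu-miR-21a-5p: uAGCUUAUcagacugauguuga
mmu-miR-21a-3p: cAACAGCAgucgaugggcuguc

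The results turn on a few distal regions, and the central 300 bases of 5 of them are given on the plus strand of GRCm38. Capitals mark the PU.1 motif GAGGAAGT, its shorter form GAGGAA (contained in it) and the RUNX motif AACCACA, searched on both strands; other motifs are not marked. Each window is centred on its region and may run past a shorter one. The first 3 windows lost accessibility in URE cells of both types, the fourth in GMP, and the fifth gained it in GMP. Another region that fell in both cell types, 7.3 kb upstream of Mir21a, is not shown. Its window holds no match to any of the marked motifs.
Mir146, 12.2 kb downstream (chr11:43361906-43362205): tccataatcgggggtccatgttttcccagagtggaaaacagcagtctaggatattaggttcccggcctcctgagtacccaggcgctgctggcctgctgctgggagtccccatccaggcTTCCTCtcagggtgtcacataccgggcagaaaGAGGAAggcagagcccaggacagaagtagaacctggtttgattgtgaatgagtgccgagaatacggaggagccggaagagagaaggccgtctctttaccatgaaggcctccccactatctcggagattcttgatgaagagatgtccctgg
Mir223, 15.4 kb upstream (chrX:96227096-96227395): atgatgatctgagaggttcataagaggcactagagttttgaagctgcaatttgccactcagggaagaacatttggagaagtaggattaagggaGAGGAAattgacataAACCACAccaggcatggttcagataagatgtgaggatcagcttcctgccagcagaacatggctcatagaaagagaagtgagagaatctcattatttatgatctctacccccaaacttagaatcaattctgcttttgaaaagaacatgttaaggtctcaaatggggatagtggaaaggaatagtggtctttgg
Mir21a, 10.4 kb upstream (chr11:86594539-86594838): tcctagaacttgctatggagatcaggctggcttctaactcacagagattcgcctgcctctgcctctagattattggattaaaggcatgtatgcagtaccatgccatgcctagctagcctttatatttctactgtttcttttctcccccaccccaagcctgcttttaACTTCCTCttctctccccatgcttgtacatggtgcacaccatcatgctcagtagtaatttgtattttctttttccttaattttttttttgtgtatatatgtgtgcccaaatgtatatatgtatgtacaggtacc
Mir155, 0.6 kb upstream (chr16:84713203-84713502): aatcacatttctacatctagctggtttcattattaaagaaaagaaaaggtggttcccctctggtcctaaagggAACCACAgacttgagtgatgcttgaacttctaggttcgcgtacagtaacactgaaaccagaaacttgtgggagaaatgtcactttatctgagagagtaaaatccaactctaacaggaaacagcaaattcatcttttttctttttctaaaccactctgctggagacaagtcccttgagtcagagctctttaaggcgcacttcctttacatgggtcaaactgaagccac
Mir223, 19.2 kb upstream (chrX:96223203-96223502): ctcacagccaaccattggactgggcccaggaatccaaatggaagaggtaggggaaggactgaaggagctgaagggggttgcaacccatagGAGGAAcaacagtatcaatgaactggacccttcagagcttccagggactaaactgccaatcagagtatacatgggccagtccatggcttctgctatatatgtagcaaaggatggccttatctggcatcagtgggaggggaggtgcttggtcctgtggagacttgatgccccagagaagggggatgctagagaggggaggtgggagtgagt

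The libraries held 23072701 to 62204826 counts over all regions, and library pairs within a group correlated at r = 0.944 to 0.982 across regions. The deleted element itself (chr2:91082790-91083700) had at most 6 counts in any URE library, against WT means of 39.4 CPM (LSK) and 43.8 CPM (GMP), where CPM are counts per 1000000 counts of the library, scaled with edgeR's TMM factors. Regions near GMP marker genes summed to 594 to 779 CPM in WT-GMP, 901 to 929 in URE-GMP and 156 to 223 in LSK of either genotype, and those near monocyte markers (Csf1r, Ly86, Irf8 and Ccr2) summed to 96.3 to 103 CPM in WT-LSK, 68.8 to 69.9 in URE-LSK, 136 to 159 in WT-GMP and 81.5 to 104 in URE-GMP. Without overlap between the genotypes in LSK were also the sums near LSK markers (565 to 588 CPM in WT, 605.5 to 692 in URE), mast cell and basophil markers (124 to 141 and 161.5 to 181.5), erythroid markers (66.4 to 68.7 and 75.7 to 81.5) and T cell markers (74.8 to 80.2 and 87.1 to 97.4). In GMP the T cell sums did not overlap either (44.9 to 47.9 and 54.6 to 60.8), and B cell sums were 17.8 to 23.7 CPM in all libraries. Megakaryocyte marker regions (Pf4, Itga2b and Gp9) summed to 117 to 148 CPM for WT and 160.5 to 174 for URE among LSK, and to 79.6 to 118 for WT and 69.1 to 85.8 for URE among GMP. Within that list, the 3 regions near Pf4 went the other way in LSK, with a mean sum of 22.7 CPM for WT and 16.8 for URE. Against their lists in LSK were also the mean sums near Gata1 (erythroid, 4.31 CPM for WT and 1.34 for URE) and Meis1 (LSK markers, 108 and 99.2). In GMP, Ms4a3 (27.3 CPM for WT and 14.3 for URE) and Csf3r (35.4 and 34.4) went against the other GMP markers. Among LSK, the GMP marker sums of the genotypes overlapped and the genes of that list were split. Ctsg (11.4 CPM for WT and 37.8 for URE) and Cebpe were higher in URE, while Csf3r, Elane, Mpo, Ms4a3 and Prtn3 were lower. B cell markers were split as well. In the other comparisons given here, the remaining genes of these lists went with the sums. The part of these shifts in the results below was not tested, and no region lay within 5 kb of Ly6a (the gene of Sca-1) or Fcgr3 (a gene of Cd16/32). In sorted bulk cells, a smaller share of cells with an open region and a lesser opening in every cell cannot be told apart. Genotypes and cell types were compared with edgeR's quasi-likelihood test over all 121336 regions, and a region was called when its Benjamini-Hochberg adjusted p was under 0.05 and its log2 fold change went beyond 1. All adjusted p-values below come from this fit, and fold changes are log2 values with their standard error (SE).

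Summed over their regions, the loci differed in the order of their mean levels, except that Mir155 and Mir146 shared the same order. The Mir223 locus was the most different between cell types, at 5.42 ± 0.38 CPM per kb of region in WT-LSK and 5.17 ± 0.66 in URE-LSK but 17.0 ± 1.1 in WT-GMP and 25.3 ± 1.9 in URE-GMP (SD, n = 3). The 2 LSK groups overlapped there, and the 3 URE-GMP libraries lay above the 3 WT-GMP libraries. The Mir142 locus was the most accessible per kb in GMP, at 32.7 ± 4.0 in WT and 44.4 ± 0.78 in URE, and in LSK it stood at 23.3 ± 0.85 in WT and 28.7 ± 1.7 in URE, with no overlap between the genotypes in either cell type. The Mir155 locus ran the other way, from 19.3 ± 0.94 in WT-LSK and 17.98 ± 1.97 in URE-LSK, which overlapped, to 13.9 ± 1.3 in WT-GMP and 10.7 ± 0.14 in URE-GMP, which did not. Sums at Mir146 were 25.3 ± 1.1 CPM per kb for WT and 24.9 ± 2.2 for URE among LSK, then 22.3 ± 0.48 for WT and 18.7 ± 3.4 for URE among GMP, and the genotypes overlapped in both cell types. The overlaps at Mir155 and Mir146 depended on scaling and window. With library size only, the genotypes lay apart at Mir155 in LSK and at Mir146 in GMP. Within 10 kb they lay apart at Mir155 in LSK. Within 50 kb they overlapped in both cell types at Mir155 and in neither at Mir146. At Mir21a only URE-LSK stood apart, at 29.1 ± 4.4 CPM per kb against 19.7 ± 0.31 in WT-LSK; among GMP, WT had 18.4 ± 2.2 and URE 18.7 ± 1.1.

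**Figure D1:**
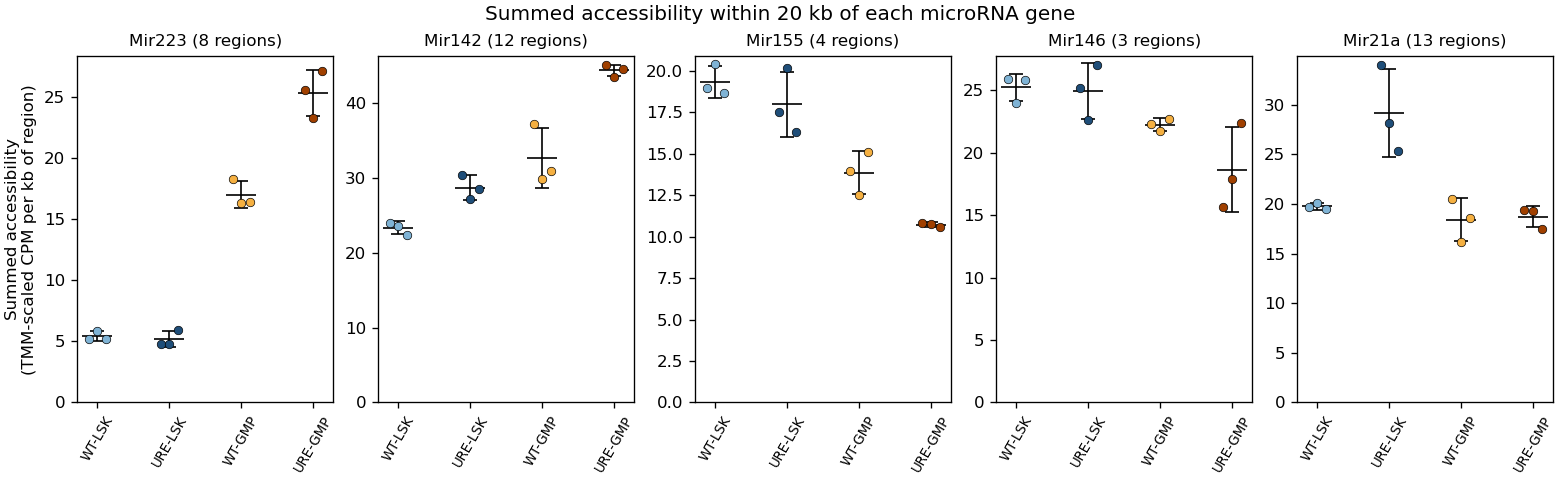
Accessibility summed over the regions within 20 kb of each microRNA gene, in TMM-scaled CPM per kb of region (y axis, from 0), by group (x axis). Points are libraries, and the bar with whiskers is the mean with its SD (n = 3); Mir223 runs from 5.42 in WT-LSK to 25.3 in URE-GMP, while at Mir21a the 3 URE-LSK libraries lie above all others.

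The sums hid changes of single regions that went in opposite directions. In LSK, 9 of the 40 member regions were called between URE and WT (5 higher, 4 lower), a share of 22.5% beside 37.5% of all regions (13.6% higher, 23.9% lower), and the median log2 change was 0.17 over the members and 0.14 over all regions. In GMP, 14 were called (5 higher, 9 lower), 35% beside 39.7% of all regions (15.6% higher, 24.1% lower), with medians of 0.06 and 0.06. Of these, 4 regions fell and 2 rose in both cell types, 3 rose in LSK alone, and 3 rose and 5 fell in GMP alone; 23 were called in neither. By adjusted p alone, 21 members passed in LSK beside 56.8% of all regions, and 24 in GMP beside 60.9%. With loess or GC offsets, which move the share of higher calls among all called regions in LSK from 36.2% to 52.5% and 51.8%, and in GMP from 39.4% to 54.5% and 52.3%, the members split into 6 higher and 3 lower or 9 and 3 in LSK, and into 5 and 7 or 7 and 8 in GMP. The 3 libraries of a genotype lay wholly apart from those of the other for 22 members in LSK and 26 in GMP, shares of 55% and 65% beside 66.7% and 65.4% of all regions. The difference between the 2 genotype effects was tested as an interaction, which called 7 members (3 higher and 4 lower, 17.5% beside 14% of all regions, 8.96% higher and 5.03% lower): 2 at Mir223, 1 at Mir142, 2 at Mir155 and 2 at Mir21a.

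**Figure D2:**
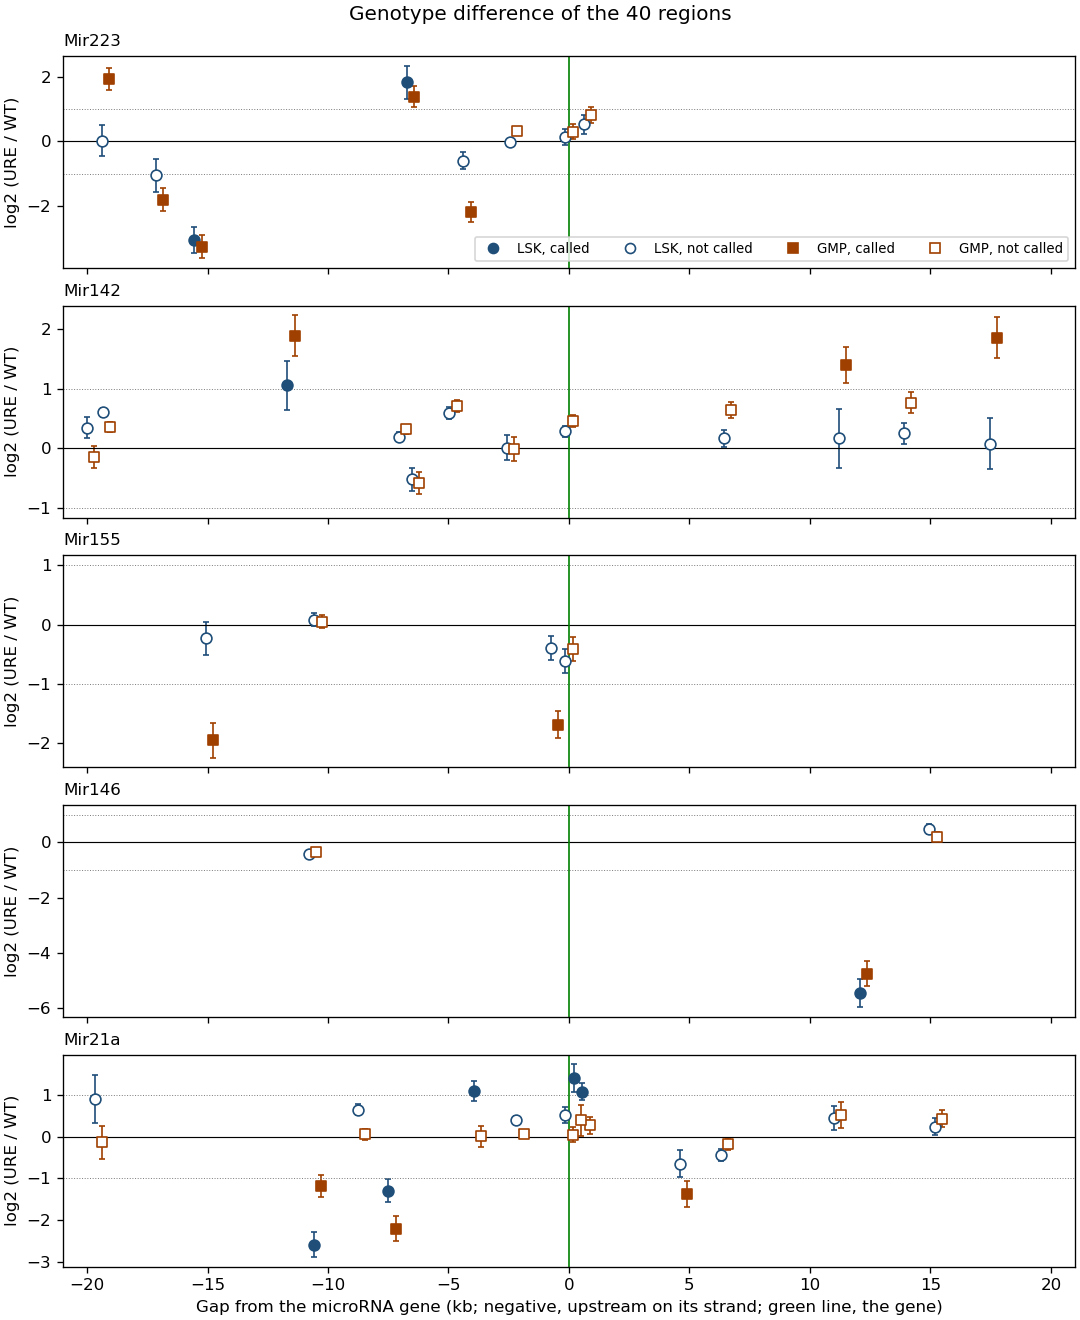
Log2 fold change of URE against WT (y axis, bars are SE) for the 40 regions, by gap from the microRNA gene in kb (x axis, negative upstream). Circles are LSK and squares GMP, filled where called, and dotted lines mark the fold threshold. The deepest losses lie 10.4 to 15.4 kb from the genes. The regions that overlap a microRNA gene (at Mir223, Mir142, Mir155 and Mir21a) stay between the dotted lines.

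Mir223 combined gains and losses within 20 kb. The region over the hairpin, in the exon of its host transcript F630028O10Rik (chrX:96242644-96242986), was low in LSK, at 0.971, 1.10 and 0.985 CPM in WT and 1.05, 0.921 and 1.35 CPM in URE. It reached 3.35, 2.08 and 2.79 CPM in WT-GMP and 3.68, 3.52 and 2.81 CPM in URE-GMP. The genotypes overlapped in both cell types, and the rise from LSK to GMP passed the test in WT (1.42, SE 0.25, adjusted p = 0.000161) and in URE (1.59, SE 0.24, adjusted p = 2.07e-05). The start of the host transcript, in a region 2.3 kb upstream, was open in all groups (LSK, 19.5 ± 1.35 CPM for WT and 19.4 ± 0.633 for URE; GMP, 27.4 ± 1.99 for WT and 33.9 ± 1.83 for URE) and was not called in any comparison.

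The widest region of the locus, 2582 bp long and 0.8 kb downstream of the hairpin, was far more open in GMP than in LSK. It held 4.64, 4.61 and 3.24 CPM in WT-LSK and 55.7, 49.8 and 47.7 CPM in WT-GMP, a log2 change of 3.63 (SE 0.30, adjusted p = 1.83e-07). In URE it went from 3.85, 3.601 and 10.2 CPM in LSK to 93.8, 78.1 and 99.5 CPM in GMP, a change of 3.93 (SE 0.29, adjusted p = 1.88e-08). All 3 URE-GMP libraries were above the WT-GMP libraries, by 0.83 (SE 0.25, adjusted p = 0.00995), which passed the p threshold but not the fold threshold; with offsets for GC content it was called, at 1.41 in GMP and 1.06 in LSK. The URE-LSK library with the highest value here, replicate 3, also had the highest sum over the GMP markers, 223 CPM against 162 and 156 in the other URE-LSK libraries, and the part of that in this spread was not tested.

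Both regions that rose at Mir223 in GMP were nearly closed in LSK. At 6.6 kb upstream, WT-LSK libraries held 0.0525, 0.122 and 0.221 CPM and URE-LSK libraries 0.4997, 0.391 and 0.619 CPM. This rise was called (1.84, SE 0.51, adjusted p = 0.00625) although no WT-LSK library had more than 11 counts. In GMP the same region rose from 3.72, 2.27 and 1.31 CPM to 6.22, 6.89 and 5.57 CPM (1.39, SE 0.31, adjusted p = 0.00121), again without overlap. At 19.2 kb upstream, the genotypes overlapped in LSK (0.210 to 0.462 CPM in WT, 0.195 to 0.534 in URE) and separated in GMP, with 2.51, 2.01 and 0.899 CPM in WT and 6.29, 6.54 and 7.49 CPM in URE. That GMP change was 1.93 (SE 0.33, adjusted p = 0.000113), and it differed from the one in LSK (interaction 1.91, SE 0.58, adjusted p = 0.0347), a call that ended in 6 of the 12 fits with 1 library left out (values from 1.57 to 1.99).

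**Figure D3:**
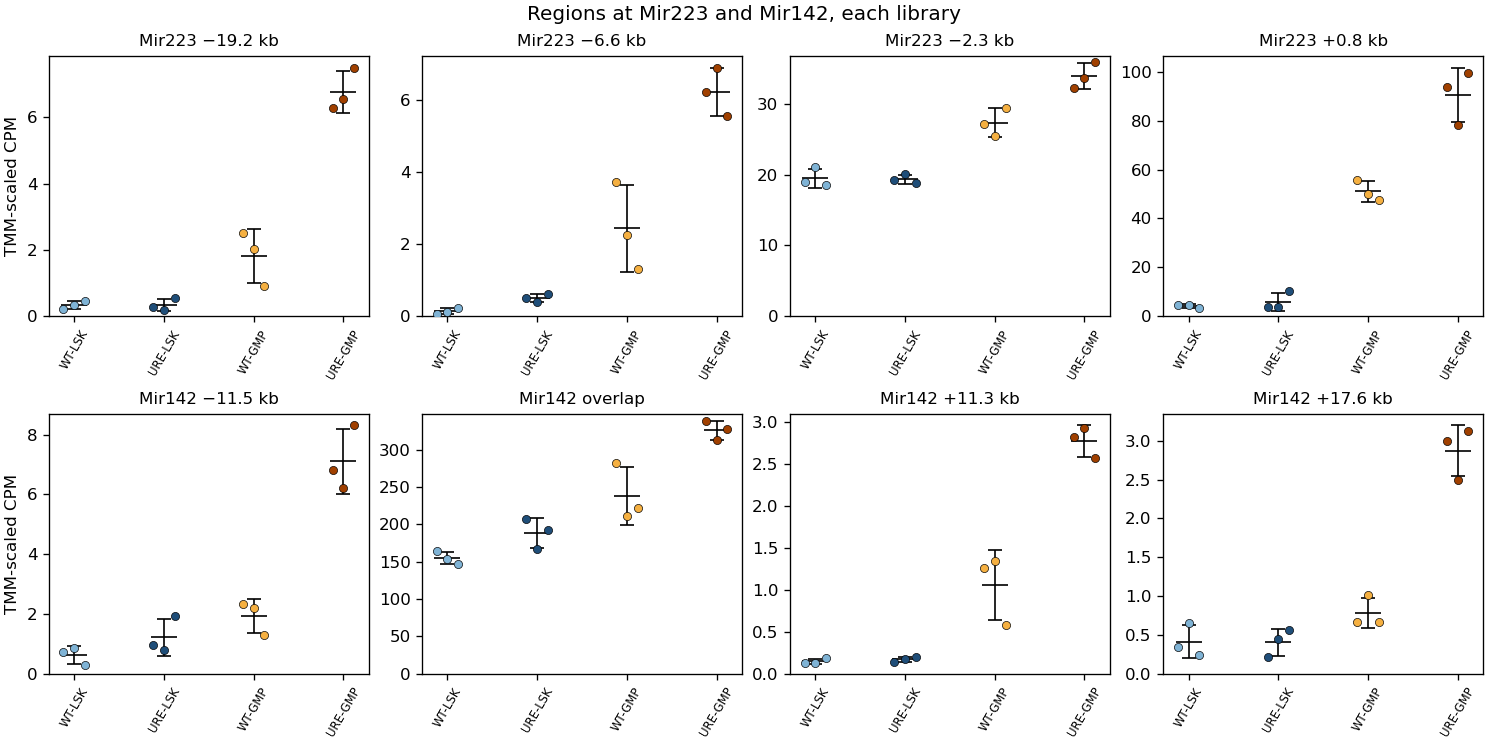
TMM-scaled CPM (y axis, from 0) of 8 regions at Mir223 and Mir142 in each library, by group (x axis), with the mean and SD (n = 3). The region 0.8 kb downstream of Mir223 reaches 78.1 to 99.5 CPM in URE-GMP, and the region over Mir142 is open in all 4 groups.

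The losses at Mir223 lay 4.2, 15.4 and 17.0 kb upstream. The region 15.4 kb upstream, between genes, held 2.41, 3.26 and 3.08 CPM in WT-LSK and 0.214, 0.419 and 0.406 CPM in URE-LSK. It held 6.15, 6.97 and 7.08 CPM in WT-GMP and 0.431, 1.25 and 0.339 CPM in URE-GMP. URE libraries were below all WT libraries in both cell types, with log2 changes of -3.06 (SE 0.40, adjusted p = 7.66e-06) in LSK and -3.27 (SE 0.36, adjusted p = 1.67e-06) in GMP. It is a region that WT cells opened further from LSK to GMP (1.21, SE 0.32, adjusted p = 0.00443). Its URE step of 1.004 (SE 0.43, adjusted p = 0.0481) was called in only 2 of the 12 fits with 1 library left out, and was 0.16 without URE-GMP replicate 2. The call also ended under the replicate block (0.93), library size only (0.93), TMM factors from promoter regions (1.02) and GC offsets (0.83). A mean CPM of at least 2 (1.02), only the groups compared (0.996) and a term for Y chromosome counts (0.90) ended it too.

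A further 2 regions fell in GMP only. At 17.0 kb upstream, over the start of Gm9051, URE-GMP libraries held 0.603, 0.798 and 0.267 CPM against 2.38, 2.08 and 1.54 CPM in WT-GMP, a change of -1.81 (SE 0.37, adjusted p = 0.000488) that was not called with loess offsets (-0.52). In LSK, with 4 to 15 counts in WT and 5 to 6 in URE, the difference was -1.06 (adjusted p = 0.0910), and it was called without WT-LSK replicate 2 (-1.33). At 4.2 kb upstream, 1339 bp before the host start, WT-GMP libraries held 1.72, 1.28 and 1.48 CPM and URE-GMP libraries 0.366, 0.243 and 0.363 CPM. This change of -2.20 (SE 0.30, adjusted p = 1.47e-05) differed from the change in LSK, where WT had 1.78 to 2.41 CPM and URE 1.12 to 1.78 CPM (-0.60, SE 0.26, adjusted p = 0.0599); the interaction was -1.59 (SE 0.40, adjusted p = 0.0124).

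Mir223 is X-linked, and the libraries differed in their Y chromosome counts. In 6 libraries (replicate 1 of every group and replicate 3 of both URE groups) the 4 Y chromosome regions held 653 to 1684 counts, and in the other 6 they held 0 to 9. URE libraries thus came with Y counts in 4 of 6 cases and WT libraries in 2 of 6. All 7 genotype calls at Mir223 were kept when a term for Y counts was added to the fit, an alternative chosen after seeing the data.

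Mir142 was open in all 4 groups, and its main regions differed between genotypes by less than the fold threshold. A region of 6816 bp spanned the hairpin, the start of its host transcript Mir142hg, the antisense gene Mir142b and the start of Tspoap1 (chr11:87754589-87761404), so that these share their counts. Its LSK libraries held 164, 154 and 147 CPM for WT and 207, 167 and 192 CPM for URE. Its GMP libraries held 282, 211 and 222 CPM for WT and 338, 313 and 328 CPM for URE. URE libraries lay above WT libraries in both cell types, by 0.28 (SE 0.10, adjusted p = 0.0192) in LSK and 0.45 (SE 0.10, adjusted p = 0.000711) in GMP, both under the fold threshold, and the LSK difference was 0.16 (adjusted p = 0.120) with library size only and turned in sign with loess offsets (-0.11, adjusted p = 0.259). The order WT-LSK, URE-LSK, WT-GMP, URE-GMP of mean levels held at 5 further regions of the locus (19.2, 11.5 and 4.8 kb upstream, 6.6 and 11.3 kb downstream), among them the promoter of Supt4a, a transcription elongation factor gene 19.2 kb upstream (26.5, 40.2, 46.5 and 59.6 CPM), and the region 4.8 kb upstream (22.1, 33.3, 34.7 and 56.6 CPM), where URE-LSK and WT-GMP overlapped. At the Supt4a promoter URE exceeded WT by 0.60 (SE 0.08, adjusted p = 1.27e-05) among LSK and by 0.36 (SE 0.08, adjusted p = 0.00122) among GMP. At 4.8 kb upstream the LSK difference was 0.59 (SE 0.10, adjusted p = 0.000106), while that of GMP was 0.71 (SE 0.10, adjusted p = 1.66e-05).

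The 3 regions called at Mir142 in GMP all rose, and all were small. At 11.5 kb upstream, URE-GMP libraries held 6.80, 6.21 and 8.31 CPM against 2.34, 2.18 and 1.29 CPM in WT-GMP (1.89, SE 0.34, adjusted p = 0.000198). Inside Tspoap1, at 11.3 kb downstream, they held 2.82, 2.93 and 2.57 CPM against 1.26, 1.34 and 0.576 CPM (1.40, SE 0.30, adjusted p = 0.000779). At 17.6 kb downstream, over a coding exon of Tspoap1, they held 2.99, 2.50 and 3.13 CPM against 0.669, 1.01 and 0.668 CPM (1.85, SE 0.35, adjusted p = 0.000247). The GMP groups did not overlap at any of these. The regions 11.3 and 17.6 kb downstream were not called in LSK, but with loess offsets they were (1.445 and 1.236). In LSK the region 11.5 kb upstream was also called (1.06, SE 0.41, adjusted p = 0.0370), but the groups overlapped (0.282 to 0.857 CPM in WT, 0.782 to 1.92 in URE). This call ended in 5 of the 12 fits with 1 library left out, among them those without URE-LSK replicate 3 (0.56) and WT-LSK replicate 3 (0.58). It also ended with library size only (0.95), TMM factors from promoter regions (0.90) and a mean CPM of at least 2 (0.92). The same held for only the groups compared (0.99) and for the term for Y counts (0.89). For the region 17.6 kb downstream the genotype effect differed between the cell types (interaction 1.77, SE 0.55, adjusted p = 0.0375), a call that ended in 8 of the 12 fits with 1 library left out (values from 1.41 to 1.91).

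Mir155 lost accessibility in GMP at 2 of its 4 regions and at none in LSK. The region 0.6 kb upstream of the hairpin, in an intron of the host transcript Mir155hg (chr16:84713166-84713539), held 6.09, 5.38 and 4.99 CPM in WT-LSK and 4.52, 4.19 and 3.82 CPM in URE-LSK. In GMP it held 3.05, 2.48 and 2.63 CPM in WT and 0.624, 0.798 and 1.11 CPM in URE. The change was -1.68 (SE 0.22, adjusted p = 1.11e-05) for GMP and -0.39 (SE 0.20, adjusted p = 0.103) for LSK. These effects differed, with an interaction of -1.29 (SE 0.30, adjusted p = 0.00812). The region 14.9 kb upstream, which is 4.0 kb before the start of Mir155hg, followed the same pattern, with 6.77, 8.85 and 7.60 CPM in WT-LSK and 6.73, 7.29 and 5.72 CPM in URE-LSK. In GMP it held 4.39, 5.67 and 10.3 CPM in WT and 1.38, 1.47 and 2.50 CPM in URE. It fell by 1.94 (SE 0.29, adjusted p = 3.56e-05) in GMP, with an interaction of -1.71 (SE 0.40, adjusted p = 0.00841).

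The other 2 regions at Mir155 were not called between genotypes. The start of Mir155hg, 10.4 kb upstream, held 24.6 ± 1.54 CPM (WT) and 25.9 ± 3.3 CPM (URE) among LSK, and 18.6 ± 1.59 CPM (WT) and 19.2 ± 1.09 CPM (URE) among GMP, with overlapping genotypes and differences of 0.08 (SE 0.11) in LSK and 0.05 (SE 0.11) in GMP. Over the hairpin itself WT-LSK libraries held 5.96, 5.10 and 5.39 CPM and URE-LSK libraries 4.04, 3.91 and 2.82 CPM (-0.61, SE 0.20, adjusted p = 0.0147, under the fold threshold). In GMP these were 3.598, 2.81 and 2.44 CPM in WT and 2.13, 2.38 and 2.06 CPM in URE (-0.41, SE 0.21, adjusted p = 0.0920).

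The largest loss among the members lay at Mir146. A region of 257 bp between genes, 12.2 kb downstream of the hairpin (chr11:43361927-43362183), held 2.99, 3.63 and 3.44 CPM in WT-LSK and 2.84, 3.88 and 3.34 CPM in WT-GMP. In URE it held 0, 0.140 and 0.0854 CPM in LSK and 0.108, 0.208 and 0.0242 CPM in GMP. These are 0 to 5 and 1 to 12 counts, against 89 to 171 in WT-LSK and 68 to 185 in WT-GMP, where 3 counts correspond to 0.0731 CPM in URE-LSK and 0.0631 CPM in URE-GMP on average. The fitted change was -5.47 (SE 0.51, adjusted p = 2.16e-07) in LSK and -4.76 (SE 0.46, adjusted p = 4.86e-07) in GMP. The difference between the cell types was 0.71 (SE 0.79, adjusted p = 0.596).

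The neighbours of this region at Mir146 were not called. The region 15.1 kb downstream, the most accessible of the locus, held 18.4, 18.4 and 20.3 CPM in WT-LSK and 27.4, 23.5 and 28.7 CPM in URE-LSK (0.48, SE 0.17, adjusted p = 0.0257), and 11.7 ± 2.1 in WT-GMP against 13.5 ± 3.9 in URE-GMP with overlapping libraries. The region 10.6 kb upstream, at the start of the non-coding gene Gm12148, held 19.996, 16.4 and 17.5 CPM in WT-LSK and 12.9, 12.5 and 14.4 CPM in URE-LSK (-0.44, SE 0.13, adjusted p = 0.00816). In GMP it held 22.8, 19.8 and 18.9 CPM in WT and 13.9, 16.8 and 17.7 CPM in URE (-0.34, SE 0.13, adjusted p = 0.0294). URE libraries were lower than every WT library in both cell types there, by less than the fold threshold.

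**Figure D4:**
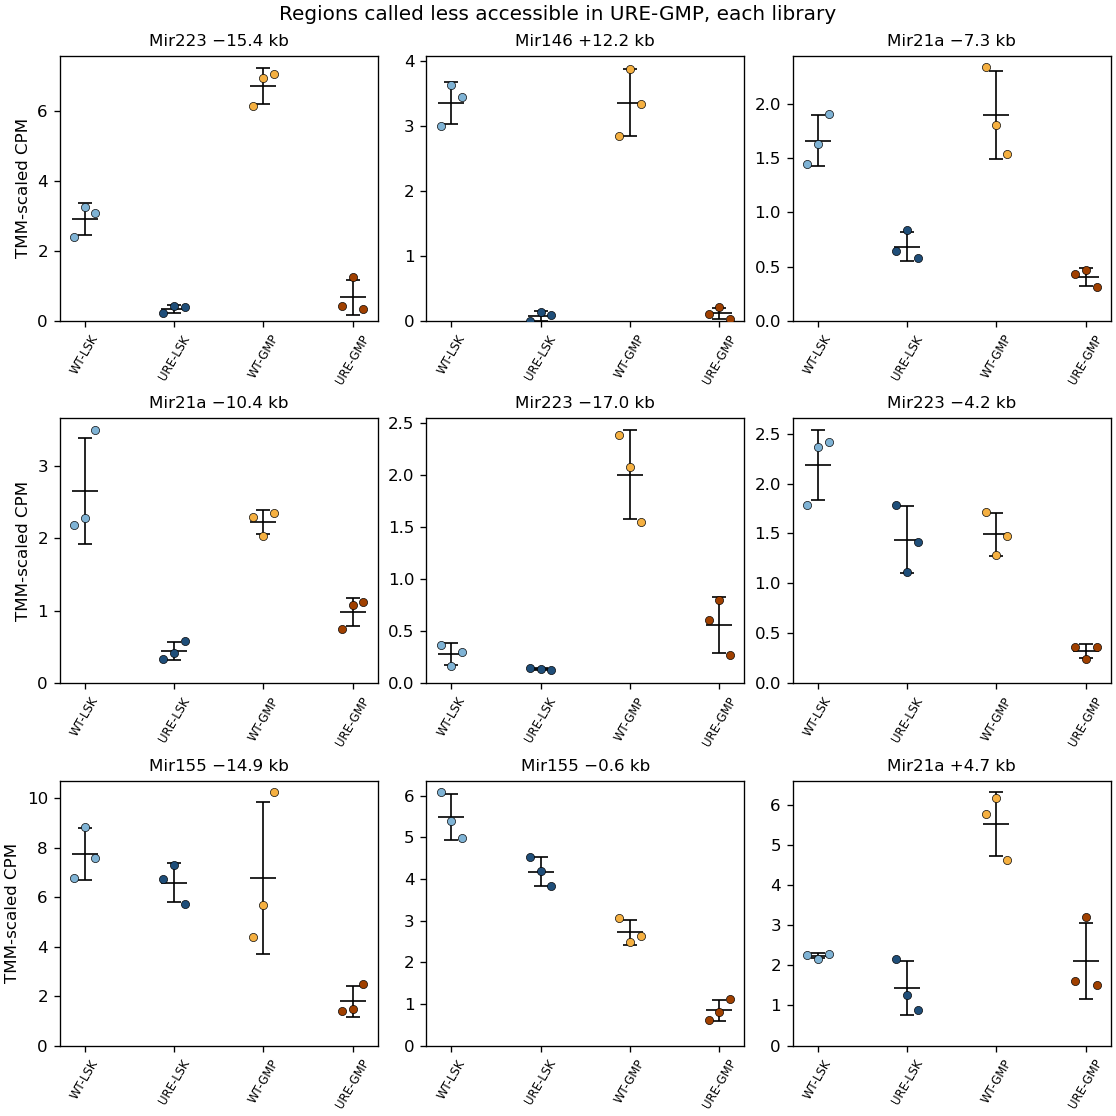
TMM-scaled CPM (y axis, from 0) of the 9 regions called lower in URE-GMP, in each library by group (x axis), with the mean and SD (n = 3). The first 4 panels show the regions that fell in both cell types, and the region 12.2 kb downstream of Mir146 holds at most 0.208 CPM in any URE library; the other 5 were called in GMP only.

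At Mir21a, 3 regions were called higher in URE than WT in LSK and none in GMP. The hairpin lies beside the end of Vmp1, a gene of autophagosome formation, whose introns hold the upstream regions. A region of 2451 bp 0.7 kb downstream held 39.3, 35.7 and 36.7 CPM in WT-LSK and 101, 74.1 and 59.6 CPM in URE-LSK. In GMP it held 34.6, 19.996 and 27.5 CPM in WT and 37.1, 36.7 and 24.4 CPM in URE. The LSK gain was 1.07 (SE 0.20, adjusted p = 0.000261), while GMP overlapped (0.27, SE 0.20, adjusted p = 0.259); the interaction did not pass (-0.80, SE 0.28, adjusted p = 0.0626). Next to it, 0.3 kb downstream, 215 bp went from 2.44, 1.67 and 1.75 CPM to 7.26, 4.88 and 3.27 CPM in LSK (1.39, SE 0.33, adjusted p = 0.00218), and 3.8 kb upstream, in a Vmp1 intron, 2.13, 1.79 and 2.25 CPM became 4.40, 4.55 and 4.21 CPM (1.08, SE 0.24, adjusted p = 0.00133). All 3 gained regions were also called lower in GMP than LSK in URE (-1.26, -1.77 and -1.31), and were not called between the cell types in WT (-0.45, -0.77 and -0.23). For the region 3.8 kb upstream the genotype effect differed between the cell types (interaction -1.07, SE 0.35, adjusted p = 0.0468), a call that was kept in 1 of the 12 fits with 1 library left out, the fit without WT-GMP replicate 2.

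The fold threshold decides 2 of these gains. With TMM factors from promoter regions, the region 0.7 kb downstream was 0.88 and the one 3.8 kb upstream 0.90, both still with adjusted p-values under 0.05. Without URE-LSK replicate 1, WT-LSK replicate 2 or WT-LSK replicate 3 the first was 0.84, 0.98 and 0.998, and without WT-LSK replicate 2 the second was 0.94.

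**Figure D5:**
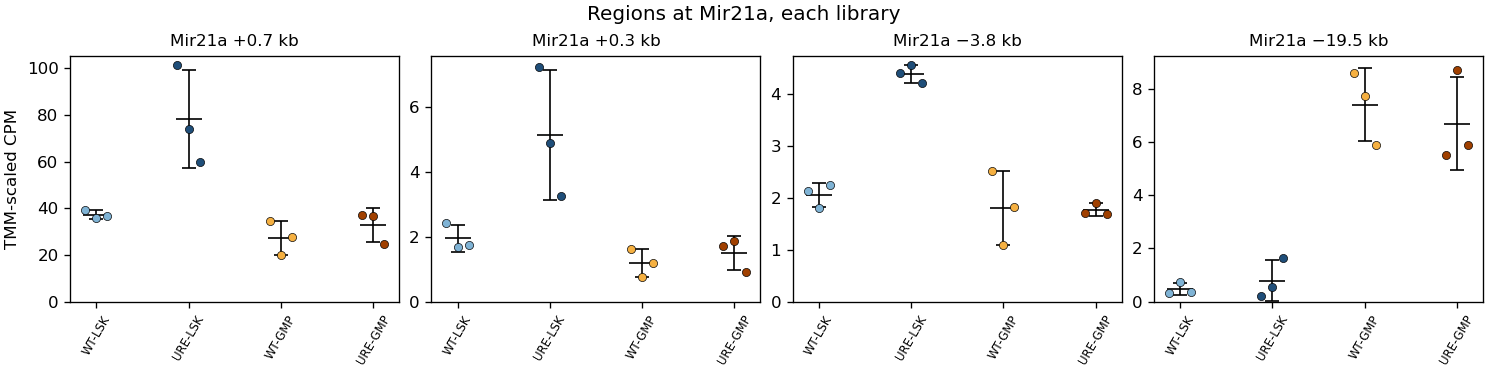
TMM-scaled CPM (y axis, from 0) of 4 regions at Mir21a in each library, by group (x axis), with the mean and SD (n = 3). In the first 3 panels the URE-LSK libraries lie above the WT-LSK libraries and the GMP groups overlap, and the region 19.5 kb upstream is high in GMP of both genotypes.

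Further into Vmp1, accessibility was lost. At 10.4 kb upstream (chr11:86594583-86594793), WT-LSK libraries held 2.18, 2.28 and 3.50 CPM and URE-LSK libraries 0.333, 0.419 and 0.577 CPM, a change of -2.58 (SE 0.30, adjusted p = 2.07e-06). In GMP, 2.30, 2.04 and 2.35 CPM in WT stood against 0.753, 1.08 and 1.11 CPM in URE, a change of -1.18 (SE 0.27, adjusted p = 0.00142) that was -0.63 with GC offsets and -0.66 with loess offsets. The loss was larger in LSK (interaction 1.40, SE 0.40, adjusted p = 0.0253), although this call ended without URE-GMP replicate 2, URE-LSK replicate 1 or WT-LSK replicate 3 (1.32, 1.23 and 1.19). At 7.3 kb upstream the order of the cell types was the reverse, with 1.66 ± 0.235 CPM for WT and 0.686 ± 0.136 for URE among LSK (-1.29, SE 0.28, adjusted p = 0.00112), then 1.90 ± 0.407 for WT and 0.405 ± 0.0799 for URE among GMP (-2.19, SE 0.29, adjusted p = 1.16e-05), but this difference did not pass (-0.91, SE 0.41, adjusted p = 0.146). The LSK loss there was -0.37 with loess offsets and -0.81 with GC offsets, neither called.

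The remaining regions at Mir21a included 1 more loss and 1 large change with cell type. The region 4.7 kb downstream held 5.77, 6.17 and 4.63 CPM in WT-GMP and 1.61, 3.21 and 1.502 CPM in URE-GMP (-1.37, SE 0.31, adjusted p = 0.00118), and in LSK 2.24 ± 0.0673 against 1.43 ± 0.663 (-0.65, SE 0.33, adjusted p = 0.104; without URE-LSK replicate 1 this was -1.08 and called). The region 19.5 kb upstream, deep in Vmp1, was nearly closed in LSK (0.315 to 0.734 CPM in WT, 0.190 to 1.64 in URE) and open in GMP (5.90 to 8.62 in WT, 5.51 to 8.73 in URE). It rose by 4.09 (SE 0.51, adjusted p = 8.10e-06) in WT and 3.05 (SE 0.46, adjusted p = 2.27e-05) in URE, and the genotypes overlapped in both cell types. The region over the hairpin held 27.1 ± 2.3 CPM in WT-LSK and 38.8 ± 5.5 in URE-LSK (0.52, SE 0.18, adjusted p = 0.0243), and 22.3 ± 8.4 and 22.9 ± 2.1 in GMP. With GC offsets its LSK difference was called (1.05). The most accessible region, 2.0 kb upstream at the end of Vmp1, held 73.8 ± 5.3 and 97.1 ± 9.9 CPM in LSK (0.40, SE 0.08, adjusted p = 0.000808) and 71.5 ± 5.6 and 74.6 ± 1.8 in GMP (0.06, SE 0.08, adjusted p = 0.542).

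The step from LSK to GMP changed 12 members in WT (11 higher, 1 lower), 30% beside 37.8% of all regions (21% higher, 16.8% lower), and 17 in URE (11 higher, 6 lower), 42.5% beside 49.1% of all regions (27.6% higher, 21.6% lower). Libraries did not overlap between the cell types at 27 members in WT and 35 in URE, 67.5% and 87.5% beside 64.9% and 73.2% of all regions. By adjusted p alone, 23 members passed in WT beside 58.8% of all regions, and 34 in URE beside 68%. These comparisons use the same libraries as those between genotypes. Of the 8 regions at Mir223, 6 rose in WT. In URE 6 rose and 1 fell, the region 4.2 kb upstream (-2.16, SE 0.30, adjusted p = 9.23e-06). Among the 6 that rose in URE, the call 15.4 kb upstream was kept in only 2 of the 12 fits with 1 library left out. At Mir142, 3 of 12 rose in each genotype, the regions 11.5 kb upstream and 11.3 and 17.6 kb downstream, by 1.69, 2.78 and 1.04 in WT and by 2.52, 4.02 and 2.81 in URE. The WT call 17.6 kb downstream ended in 6 of the 12 fits with 1 library left out: without URE-GMP replicate 1 (1.02), WT-GMP replicate 1 (1.06), 2 (0.70) or 3 (1.06), or WT-LSK replicate 1 (0.86) or 3 (0.64). It also ended with library size only (0.97), loess offsets (0.77) and only the groups compared (1.04). At Mir155, no region rose, 1 fell in WT and 2 fell in URE. The WT fall, 0.6 kb upstream (-1.02), went under the fold threshold with DESeq2 (-0.98), RLE size factors (-0.97), loess offsets (-0.90) and only the groups compared (-0.99). No region at Mir146 was called in this step.

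The motif content of the 300 base windows was counted as a description. GAGGAAGT was found in 3 of 40 member windows (7.5% beside 8.70% of all regions): 10.4 kb upstream and 6.5 kb downstream of Mir21a and 10.6 kb upstream of Mir146. Of these, the first fell in both cell types and the other 2 were not called. The shorter GAGGAA, added after the windows were seen, was in 16 of 40 (40% beside 39.7%), of which 5 were called lower in 1 or both cell types, 2 were called higher (19.2 and 6.6 kb upstream of Mir223) and 9 were called in neither. AACCACA was in 12 of 40 windows (30% beside 14.4%), of which 4 were called lower in 1 or both cell types (both lost regions of Mir155 and the regions 15.4 and 4.2 kb upstream of Mir223), 1 was called higher in both (11.5 kb upstream of Mir142) and 7 were called in neither. The C/EBP motif TTGCNNAA was in 7 (17.5% beside 16.4%), with 2 matches 19.5 kb upstream of Mir21a, the region that opened most in GMP at that locus. The regions 17.0 kb upstream of Mir223 and 11.3 kb downstream of Mir142 also held it and rose from LSK to GMP in both genotypes. Those over Mir155 and 3.8 kb upstream, 6.5 and 15.3 kb downstream of Mir21a held it and were not called higher in either genotype. The one 6.5 kb downstream of Mir21a still rose in URE, by less than the fold threshold (0.39 to 0.59 in the fits with 1 library left out). The central window of the region 0.8 kb downstream of Mir223 had no match, while the whole region of 2582 bp held 3. The shares given here cover the windows only. The GATA motif AGATAA was in 8 (20% beside 12.9%), the E-box CAGCTG in 7 (17.5% beside 20.5%), the AP-1 motif TGANTCA in 4 (10% beside 12.1%) and the ETS motif CCGGAAGT in 1 (2.5% beside 1.22%).

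Among 14668 promoter regions of protein-coding genes, those whose log2(CPM + 0.1) levels over the 12 libraries followed the region with the most counts at Mir223, Mir142, Mir155 or Mir21a most closely are given as a description. The points share their libraries and groups. For the region 0.8 kb downstream of Mir223 these were the promoters of Hsd11b1 (r = 0.991), which encodes a glucocorticoid-activating enzyme, Pafah2 (r = 0.990) and Elane (r = 0.989), the gene of neutrophil elastase. For the region over Mir142 they were Dmc1 (r = 0.994), Zfp704 (r = 0.988) and Baz2a (r = 0.987). For the start of Mir155hg they were Ikzf4 (r = 0.958), Serpinb6a (r = 0.956) and Pou3f1 (r = 0.953), and for the region 2.0 kb upstream of Mir21a Zfp949 (r = 0.967), Armcx4 (r = 0.955) and Unc45a (r = 0.945).

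Other microRNA genes known from blood cells gave a background for these loci. Of 43 such genes 39 had a region within 20 kb, 198 regions in all. Of these, 46 were called in LSK (16 higher, 30 lower), 23.2% beside 37.5% of all regions. In GMP 51 were called (20 higher, 31 lower), 25.8% beside 39.7% of all regions. At the cluster of Mir17, Mir18, Mir19a, Mir20a, Mir19b-1 and Mir92-1, 2 of the 4 shared regions fell in LSK and 3 in GMP, and at Mir29a and Mir29b-1 5 of 9 shared regions fell in each cell type; both were picked for mention after their values were seen. Genes of microRNA processing and silencing, such as Drosha, Dicer1 and Ago2, had 20 regions at the starts of 17 of 19 genes. None of the 20 was called by edgeR between genotypes in either cell type, and none by DESeq2; at an unadjusted p under 0.05 edgeR counted 14 in LSK and 10 in GMP and DESeq2 15 and 13. Their log2 changes ran from -0.14 to 0.87 in LSK and from -0.49 to 0.53 in GMP. Of all regions, 37.5% were called in LSK and 39.7% in GMP. By edgeR's adjusted p alone, 11 of the 20 passed in LSK, all higher in URE, beside 56.8% of all regions. In GMP 8 passed (7 higher, 1 lower), beside 60.9%.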

How the data were processed

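ATAC-seq (OmniATAC protocol) of sorted LSK and GMP was analysed from the deposited table of raw counts, 121336 regions in 12 libraries. Per the study's methods, the authors aligned reads to GRCm38 with Bowtie2, removed duplicates and non-primary chromosomes and called peaks per group with Genrich. The submitters' processing notes also name cutadapt, bedtools and featureCounts, without their roles. The deposited counts are not normalized. Whether a count is a fragment or a read end is not given in the sources used here, and region starts were taken as 0-based and are printed 1-based. SD and SE include the variation between libraries, while the CPM values given for 3 counts reflect the scaled library sizes only.

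Counts were fitted over all regions with edgeR 4.0.16 (quasi-likelihood, TMM factors, filterByExpr, which removed no region) in R 4.3.3, with 1 coefficient per group, and tested two-sided with Benjamini-Hochberg adjustment; the steps were tested on simulated data. SE was the log2 fold change divided by the root of F. Totals ranged from 23072701 to 62204826 counts. The methods give 3 mice per genotype and cell type, and the labels do not tie a library to a mouse.

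The members, motifs and gene lists were chosen with earlier results of these data known. Named for each microRNA were the region nearest to the gene, the one with the most counts over all libraries, and those with the smallest p between genotypes in LSK, in GMP and for the interaction; other regions are named where called or where a sentence needed them, after their values were seen. Alternatives were DESeq2 1.42.0, other scalings, offsets for intensity (loess) and GC content, filters, window sizes, leaving out each library and a block for the replicate number. Same-numbered libraries deviated together with r = 0.101, 0.207 and 0.350 in GMP and 0.179, 0.191 and 0.206 across WT cell types, over 0.1 in every pair, but not in LSK (0.100, 0.0622 and -0.0611) or across URE cell types (0.0620, 0.275 and 0.120). Mature microRNAs came from RefSeq, GRCm38.p6. The promoters most like the leading Mir146 region are not reported here.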

Additional observations from a re-analysis of the deposited data

Results flagged for a closer look

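The genotype effect differed between GMP and LSK, by the test of the interaction of genotype and cell type, at 7 of the 40 regions. The effect in GMP minus that in LSK was 1.91 at the region 19.2 kb upstream of Mir223 and 1.77 at the region 17.6 kb downstream of Mir142. In the main fit only GMP was called higher at these regions. With loess offsets the region at Mir142 was also called higher in LSK (1.236). The difference between the effects was -1.59 at 4.2 kb upstream of Mir223, and at Mir155 -1.71 at 14.9 kb upstream and -1.29 at 0.6 kb upstream. These 3 calls were kept in all fits with 1 library left out and under all scalings tried. At Mir21a it was -1.07 at 3.8 kb upstream and 1.40 at 10.4 kb upstream. The call 19.2 kb upstream of Mir223 ended without URE-GMP replicate 1 or 3, URE-LSK replicate 1 or 2, or WT-LSK replicate 2 or 3. The call 17.6 kb downstream of Mir142 ended without URE-GMP replicate 1 or 3, URE-LSK replicate 1 or 2, WT-GMP replicate 1 or 3, or WT-LSK replicate 1 or 2. The call 10.4 kb upstream of Mir21a ended without URE-GMP replicate 2, URE-LSK replicate 1 or WT-LSK replicate 3.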

How the results depend on the processing

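Of the calls among the member regions, 5 of 9 in LSK, 12 of 14 in GMP, 10 of 12 for the step in WT, 15 of 17 for the step in URE and 3 of 7 interactions were kept under every setting that still tested the region. A region dropped by a filter thus counts as kept there. Restricting the test to regions with a mean CPM of at least 2 tested 32 members and left 3 calls in LSK, 7 in GMP and 3 interactions, beside 21246, 21981 and 10872 of 78097 regions, 23 and 25 at the other blood microRNA loci in LSK and GMP, and 3 named regions beside 11. Without the fold threshold, 21, 24, 23 and 34 members passed in LSK, GMP, the WT step and the URE step, with 101 and 103 regions at the other loci and 11 and 8 at the processing genes. Within 10 kb, 5, 5, 5 and 8 of 22 regions were called in the same order (22.7%, 22.7%, 22.7% and 36.4%), with 3 interactions (13.6%). Within 50 kb these were 16, 22, 22 and 32 of 70 (22.9%, 31.4%, 31.4% and 45.7%). The shares of all regions were 37.5%, 39.7%, 37.8% and 49.1%, and 14% for the interaction. GC offsets called 1 processing gene region in LSK; the cause was not tested. Leaving out 1 library gave 7 to 10 calls in LSK, 14 in GMP, 11 to 13 and 16 to 20 for the steps and 3 to 7 interactions. The sign turned with GC offsets 2.3 kb upstream of Mir223 in LSK (0.56), and with loess offsets 6.9 kb upstream of Mir142 in LSK (-0.12) and the WT step (-0.13), over Mir142 in LSK (-0.11) and 2.0 kb upstream of Mir21a in GMP (-0.18); the cause was not tested. The replicate block ended 1 member call, the URE step 15.4 kb upstream of Mir223 (0.93), and no genotype call. Regions with under 20 counts in a group are limited by depth.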
